A study of Mus musculus with 18 samples.

Results

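Lung monooxygenases put an oxygen atom on foreign compounds, which readies some for excretion and turns others into reactive products. The genes followed here are the cytochrome P450 (CYP) genes Cyp2f2, Cyp2b10, Cyp2a5, Cyp2s1, Cyp2e1 and Cyp4b1, which lie outside the CYP1 family, the gene of their electron donor Por (NADPH-cytochrome P450 reductase), and the flavin-containing monooxygenase (FMO) genes Fmo1 and Fmo2. CYP2 and CYP4 enzymes are haem proteins of the endoplasmic reticulum that take electrons from POR, whereas FMO enzymes carry a flavin, take electrons from NADPH directly and oxidize nitrogen and sulfur atoms. In the mouse lung, club cells of the airways are known for their high content of CYP2F2, and FMO2 is the FMO form best known from lung. A probe was taken for a gene where its RefSeq accession mapped to that gene. This gave 10 probes for 8 of the 9 genes, out of 20660 named genes on the array. Cyp2e1 and Fmo1 had 2 probes each, and no probe mapped to Cyp2a5.

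The samples were lungs of male MutaMouse, a transgenic strain that carries a reporter for mutations, at about 12 weeks of age. Vehicle mice (n = 5) were gavaged with olive oil, and the others with 4PAH-Mix in olive oil, a defined mixture of benzo(a)pyrene (BaP), benz(a)anthracene, benzo(b)fluoranthene and chrysene, all polycyclic aromatic hydrocarbons (PAHs). The low dose was 12.5 (n = 4), the medium dose 25 (n = 5) and the high dose 50 mg BaP equivalents/kg-bw/day (n = 4), given daily for 28 days, and lungs were taken 72 h after the last gavage. Each mouse had 1 array, on which its lung RNA (Cy5) was measured against Universal Mouse Reference RNA from 11 cell lines (Cy3). A value below is the log2 ratio of Cy5 over Cy3, a difference is one between group means of that ratio, and a gene was called when limma's adjusted p was 0.05 or less and the fold change at least 1.5. For a gene with several probes, the brightest stands for it and the other is named as the second probe.

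In Cy5, 51.5% to 61.1% of an array's probes were well above background. All 13 measured markers of club and airway secretory cells and all 10 alveolar type 2 markers were among them in at least 1 group. Adipocyte and cardiomyocyte markers also varied widely between mice: the summed Cy5 signal of the 7 cardiomyocyte markers ran from 2258 to 137915. All 4 groups were present on each of the 3 slides, but dose group and array column went together, and those cannot be told apart. In whole-lung RNA, fewer cells of a type and less RNA per cell cannot be told apart either.

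PAHs bind the aryl hydrocarbon receptor (AHR), which with its partner ARNT binds DNA at a short core sequence, GCGTG. The 250 bases before the start of 3 of these genes, and of the AHR repressor gene Ahrr for comparison, are printed below, 5′ to 3′ on the gene's own strand, with each GCGTG, or CACGC where the core lies on the other strand, in capitals. They come from RefSeq (GRCm38.p6). A window was at hand for 8 of the 9 genes, and none for Fmo1. Por and Cyp2b10 are shown because only their windows held the core among these 8. Cyp2s1 is shown because it is known as an AHR-responsive gene of extrahepatic tissue.
Por, chr5:135688895-135689144, plus strand: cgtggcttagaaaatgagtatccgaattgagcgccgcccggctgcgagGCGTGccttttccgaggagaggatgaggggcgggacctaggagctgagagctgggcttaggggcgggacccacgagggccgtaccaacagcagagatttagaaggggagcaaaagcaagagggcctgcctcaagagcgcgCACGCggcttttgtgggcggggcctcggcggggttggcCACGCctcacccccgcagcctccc
Cyp2b10, chr7:25897408-25897657, plus strand: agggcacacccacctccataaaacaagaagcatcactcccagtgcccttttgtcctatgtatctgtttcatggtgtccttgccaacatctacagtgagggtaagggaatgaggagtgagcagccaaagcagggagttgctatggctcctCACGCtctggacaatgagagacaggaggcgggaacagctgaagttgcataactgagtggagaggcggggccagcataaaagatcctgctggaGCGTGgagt
Cyp2s1, chr7:25816526-25816775, minus strand: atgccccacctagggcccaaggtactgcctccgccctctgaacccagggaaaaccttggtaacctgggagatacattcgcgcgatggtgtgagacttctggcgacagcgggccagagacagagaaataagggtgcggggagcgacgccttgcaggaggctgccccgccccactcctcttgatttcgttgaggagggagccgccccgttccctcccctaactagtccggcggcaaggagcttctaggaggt
Ahrr, chr13:74292332-74292581, minus strand: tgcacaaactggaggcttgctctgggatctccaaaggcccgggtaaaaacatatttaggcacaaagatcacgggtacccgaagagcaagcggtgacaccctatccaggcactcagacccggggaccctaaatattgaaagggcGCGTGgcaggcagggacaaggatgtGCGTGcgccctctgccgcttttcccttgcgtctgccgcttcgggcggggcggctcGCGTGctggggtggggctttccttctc
The Por window held the core 3 times, with first bases 202, 62 and 24 bases before the start, and the Cyp2b10 window 2 times, at 101 and 9 bases. The Ahrr window held it 3 times, at 107, 82 and 27 bases. The core was present in 28.2% of all 32851 such windows. A match is a description of the letters and not a binding site, and the windows without one say nothing of AHR elsewhere.

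None of the 8 measured genes was called at any dose. At the low dose 0 of 8 were called, where 0.16% of all named genes were, at the medium dose 0 of 8, where 0.934% were, and at the high dose 0 of 8, where 1.51% were. Between the high and the low dose none of them was called either, a comparison in which 0.0823% of named genes were called. With adjusted p alone and no limit on the fold change, limma also called 0 of 8 at each dose, beside 0.247%, 4.82% and 5.61% of named genes in order of dose. At an unadjusted p under 0.05 the counts were 0 of 8 at the low dose (9.26% of named genes), 2 of 8 at the medium dose, Cyp2f2 and Fmo1 (19.7%), 1 of 8 at the high dose, Fmo1 (20%), and 0 of 8 between the high and low dose (7.12%). No gene had dosed mice that all lay beyond all vehicle mice at any dose, while 3.35%, 5.96% and 10.7% of named genes did in order of dose. The median difference over the 8 genes was 0.06, -0.10 and -0.07 in order of dose, beside 0.01, 0.02 and 0.02 over all named genes.

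The intervals of the ratios show what sizes of change these mice leave in range with loess. On the standing probes, at the low dose the 95% interval of the difference lay within a 1.5-fold change in both directions for 7 of the 8 genes. This held for 7 genes at the medium dose but for only 4 at the high dose. At the high dose the intervals of Cyp2e1 and Por reached a 1.5-fold increase, and those of Cyp2f2 and Fmo1 a 1.5-fold decrease. The second probe of Fmo1 reached a 1.57-fold decrease at the low dose and a 1.81-fold decrease at the medium dose, so that Fmo1 was within the limit at these doses on its standing probe alone. Between the high and low dose the interval lay within the limit for 7 of the 8 genes. That of Cyp2f2 reached a 1.65-fold decrease, and that of the second probe of Fmo1 a 1.61-fold decrease. The interval of Cyp2b10 at the high dose ran from -0.25 to 0.20, but its difference lay outside it with scale normalization (0.29) and with Cy5 alone (0.42).

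**Figure D1:**
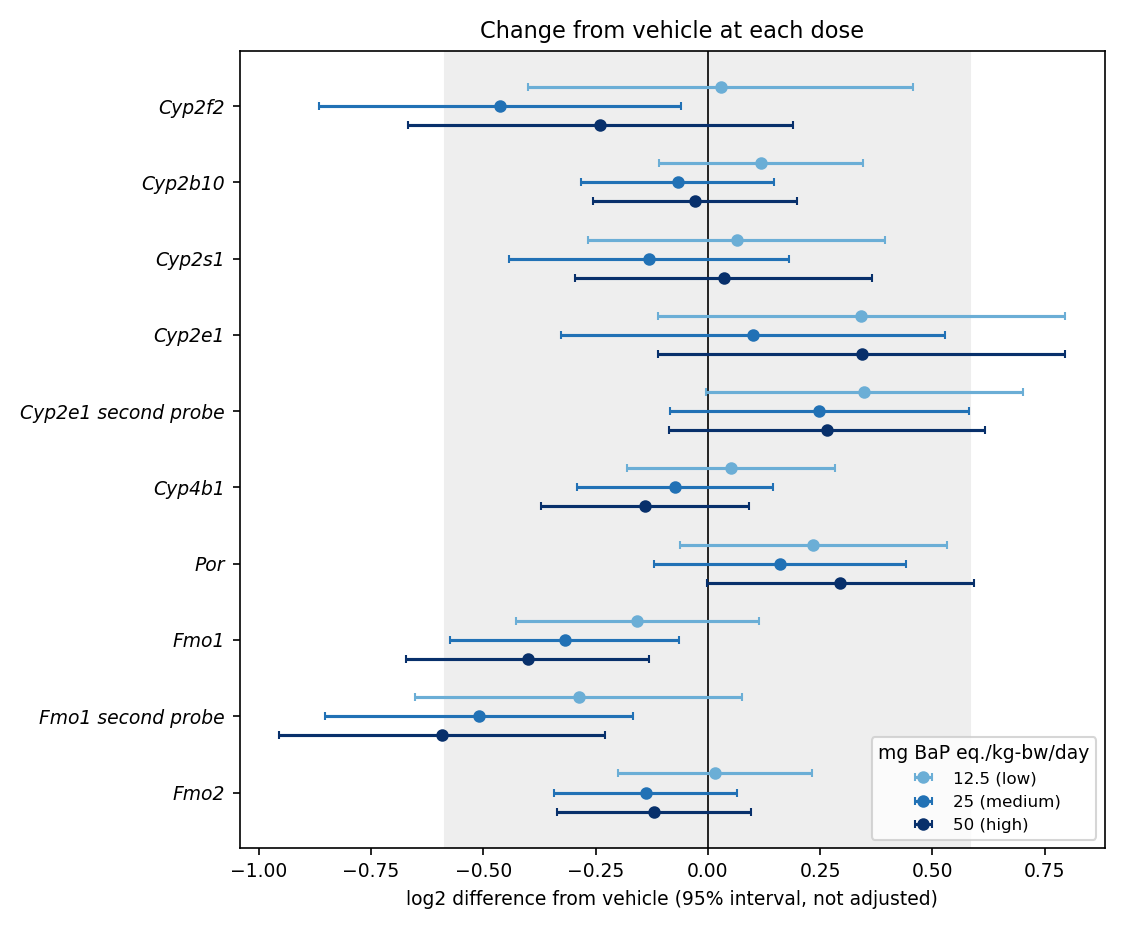
Log2 difference from vehicle (x axis) of each gene at the low, medium and high dose, with its 95% interval, not adjusted for the number of genes. The grey band marks changes of less than 1.5-fold. The intervals of Fmo1 at the medium and high dose and of Cyp2f2 at the medium dose lie below 0, and those of Cyp2b10, Cyp2s1, Cyp4b1 and Fmo2 lie within the band at every dose.

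Cyp2f2 encodes the club cell P450 that is known for activating naphthalene. Its ratios were 6.91, 6.91, 6.24, 6.28 and 6.69 in the vehicle mice, 6.75, 6.68, 6.38 and 6.72 at the low dose, 6.32, 6.43, 6.48, 6.16 and 5.32 at the medium dose, and 6.34, 6.40, 5.91 and 6.81 at the high dose. The groups overlapped, and the medium group held the widest spread because of mouse 15. In order of dose the difference was 0.03 ± 0.21, -0.46 ± 0.19 and -0.24 ± 0.21 (SE), with limma adjusted p of 0.988, 0.234 and 0.662. Without mouse 15 the medium difference was -0.26 ± 0.16. Of the 13 club and airway secretory markers, 1 was called at the medium dose, Upk3a, which was lower (-0.94). At that dose 0.431% of all named genes were called lower. At the high dose 0 of the 13 markers were called. The difference was negative for 10 of the 13 at the medium dose (median -0.24) and for 8 at the high dose (median -0.04). The summed Cy5 signal of these markers ran from 1130110 to 1385380 in vehicle and from 1225830 to 1483980 in medium-dose mice. Their part in the values of Cyp2f2 was not tested.

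The ratio of Cyp2f2 went with its reference channel more than with its lung channel. Mouse 15 had a Cy3 signal of 8582, from a reference RNA common to all arrays, where the other 17 arrays lay between 3011 and 5811, and its Cy5 signal of 382267 was inside the range of the others. Over the 18 mice the ratio of Cyp2f2 correlated with its Cy3 signal at r = -0.85 and with its Cy5 signal at r = 0.02 (quantile-normalized log2 signals). Without mouse 15 these were -0.67 and 0.48. With Cy5 alone the medium and high differences of Cyp2f2 were 0.21 ± 0.12 and 0.09 ± 0.13, of the opposite sign to the ratio, with limma adjusted p of 0.389 and 0.810. The Cy5 spot of Cyp2f2 ranked between 19 and 40 from the brightest on its array, where quantile normalization sets a value by its rank. It was marked saturated on 0 of 18 arrays.

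**Figure D2:**
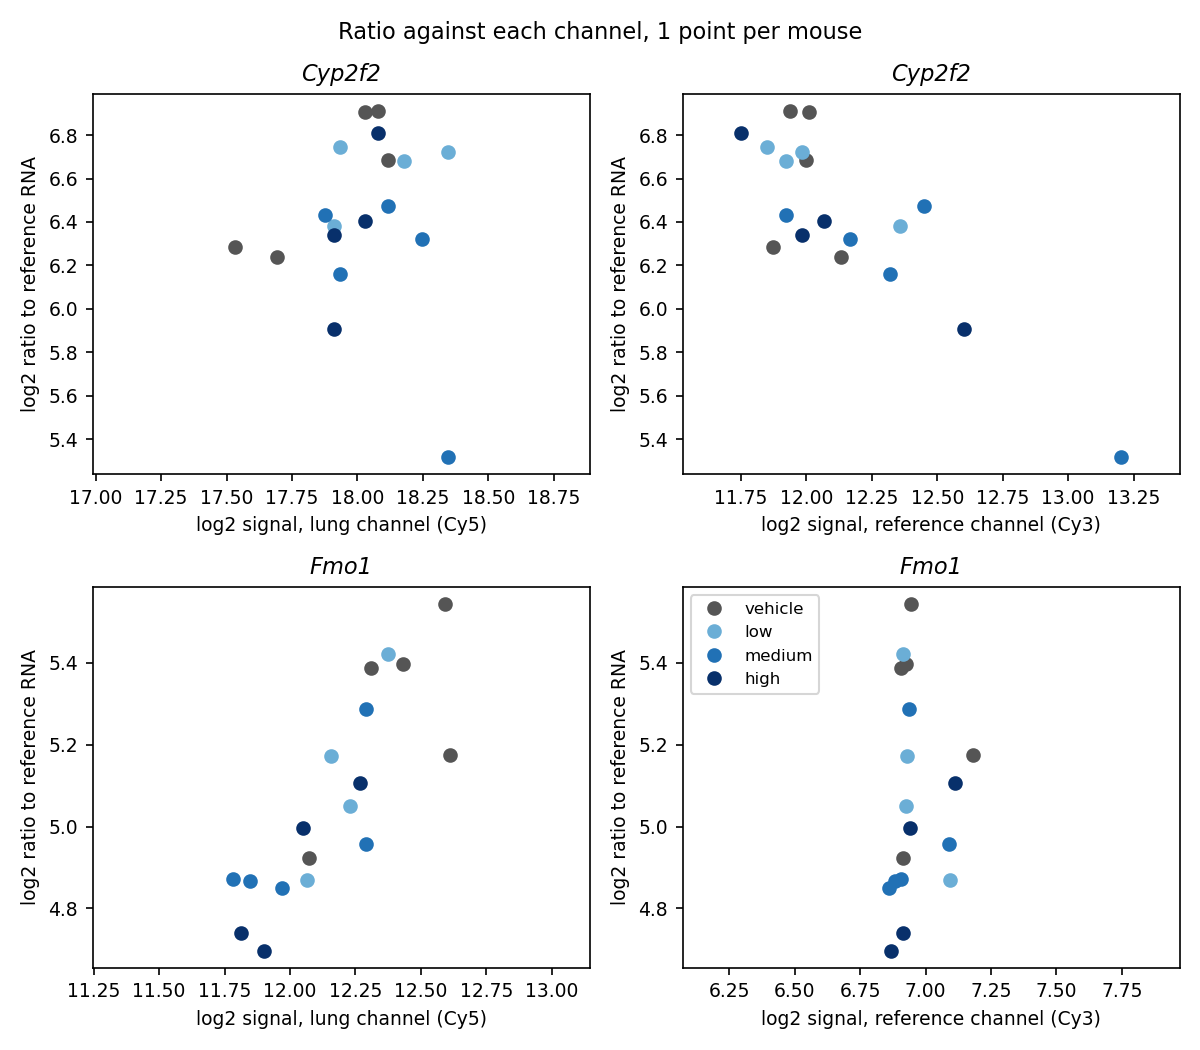
Log2 ratio (y axis) of Cyp2f2 and Fmo1 against the normalized log2 signal of the lung channel (left) and of the reference channel (right), 1 point per mouse, coloured by group. For Cyp2f2 the ratio goes down as the reference signal goes up (r = -0.85), with mouse 15 at the lower right, and for Fmo1 it goes up with the lung signal (r = 0.84).

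Cyp2b10 encodes a P450 that is induced through the constitutive androstane receptor in liver and is expressed in lung without inducers. Its ratio ran from 5.42 to 5.88 in vehicle mice, 5.70 to 5.89 at the low dose, 5.41 to 5.86 at the medium dose and 5.38 to 5.88 at the high dose. The high-dose difference was -0.03 ± 0.11 (SE; limma adjusted p = 0.949). Its Cy5 and Cy3 signals varied together between mice (r = 0.77). The quantile-normalized Cy5 signal was 15.34 ± 0.26 (SD, n = 5) in vehicle and 15.76 ± 0.09 (SD, n = 4) in high-dose mice, and the Cy3 signal 9.94 ± 0.25 and 10.34 ± 0.23. With Cy5 alone the high-dose difference was 0.42 ± 0.13 (limma adjusted p = 0.0843), which did not pass the threshold. The sign for Cyp2b10 thus turned with the scaling, and it was called in neither.

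Cyp2s1, whose ratio followed its lung signal (r = 0.94), differed from vehicle by 0.06 ± 0.16, -0.13 ± 0.15 and 0.04 ± 0.16 (SE) in order of dose. Its interval at the high dose, -0.30 to 0.37, holds changes of up to 1.29-fold upwards. The same libraries carried a graded difference in Ahrr, which stands in a list of 14 xenobiotic receptors and their partners and was the only gene of that list called. Ahrr differed from vehicle by 0.69, 0.95 and 1.45 at the 3 doses (limma adjusted p = 0.00021, 2.4e-07 and 7.5e-10), and its ratio lay between -0.76 and -0.60 in the vehicle mice and between 0.72 and 0.89 in the high-dose mice. Its Cy5 signal was well above background in 1 of 5 vehicle mice and in all dosed mice, its second probe in none, and with median centring in place of loess its call at the low dose was lost. Ahr itself (-0.06, -0.21 and -0.22), Cebpa (-0.12, -0.22 and -0.32), Foxa2 (0.28, 0.14 and 0.21) and Ppara (-0.03, -0.20 and -0.18) were not called.

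Cyp2a5, which encodes the mouse coumarin hydroxylase, has a near-identical relative, Cyp2a4, whose probes may also take up its RNA. The standing probe of Cyp2a4 was at 4.91 ± 0.56 (SD, n = 5) in vehicle mice and differed by 0.60 ± 0.29, 0.36 ± 0.27 and 0.39 ± 0.29 (SE) in order of dose, with limma adjusted p between 0.586 and 0.621. Vehicle mice alone ran from 4.24 to 5.67, and its groups overlapped at each dose. The second probe of Cyp2a4, also well above background in Cy5 on every array, ran from 2.03 to 3.98 in vehicle mice. On it the low dose ran from 2.66 to 4.17, the medium dose from 2.95 to 3.79 and the high dose from 2.92 to 4.15. Values of Cyp2a4 are therefore no measure of Cyp2a5 alone.

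Cyp2e1, known for oxidizing ethanol and other small molecules, is a liver gene foremost and was weakly measured here. Its ratios were 2.46, 2.35, 1.82, 2.51 and 2.75 in vehicle mice, 3.00, 2.68, 2.77 and 2.43 at the low dose, 2.61, 2.94, 2.34, 2.06 and 2.46 at the medium dose, and 2.50, 2.69, 2.16 and 3.53 at the high dose. Mouse 20 was the highest of all, and the groups overlapped. The differences were 0.34 ± 0.22, 0.10 ± 0.21 and 0.34 ± 0.22 (SE), and the high-dose difference was 0.07 ± 0.19 without mouse 20. The second probe differed by 0.35, 0.25 and 0.27, with limma adjusted p between 0.505 and 0.631. Both probes were well above background in Cy5 in all 18 mice, but in Cy3 the first was so in 14 and the second in 1.

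Cyp4b1 encodes a P450 that in lung activates plant furans and aromatic amines. Its ratio was 7.81 ± 0.14 (SD, n = 5) in vehicle, 7.86 ± 0.14 (n = 4) at the low, 7.74 ± 0.22 (n = 5) at the medium and 7.67 ± 0.18 (n = 4) at the high dose. The order was low, vehicle, medium, high, and no neighbours in it differed beyond their spread. The high-dose difference of -0.14 ± 0.11 (SE; limma adjusted p = 0.626) was positive, at 0.08 and 0.30, with median centring or scale normalization.

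Of the other CYP2 genes, 41 of 47 had a probe and 15 of those were well above background in a group, and of the other CYP4 genes 19 of 19 had one and 9 were. None was called at any dose, although 1 CYP2 gene was at the medium and high dose with the scanner's ratios or scale normalization, and 1 CYP4 gene at the high dose with the scanner's ratios. With adjusted p alone, 1 of the 41 CYP2 genes was higher at the high dose, Cyp2b9, which differed by 0.52 ± 0.10 (SE; limma adjusted p = 0.00391). At the medium dose Cyp2b9 (0.55), Cyp2j8 (0.44) and Cyp2j6 (0.35) passed in this way. Cyp2j8 and Cyp2j9 differed by 0.36 and 0.33 at the high dose and did not pass. Among the CYP4 genes, 3 of 19 were higher by adjusted p alone, at the medium as well as the high dose, all of the CYP4F subfamily, which is known for hydroxylating fatty acids and eicosanoids. These were Cyp4f13 (0.42 ± 0.09 at the high dose, limma adjusted p = 0.00591), Cyp4f17 (0.37 ± 0.08, 0.0106) and Cyp4f16 (0.35 ± 0.09, 0.0315). Much of the CYP4 list is of this subfamily, and its members Cyp4f39 (0.25), Cyp4f18 (0.24) and Cyp4f15 (0.16) did not pass. By this rule 3.18% of all named genes were higher at the high dose and 2.86% at the medium dose. The median high-dose difference was 0.02 over the CYP2 list and 0.09 over the CYP4 list, genes at background included. Over only the 15 CYP2 and 9 CYP4 genes well above background in a group it was 0.04 and 0.24. At the medium dose those medians were 0.13 and 0.22.

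**Figure D3:**
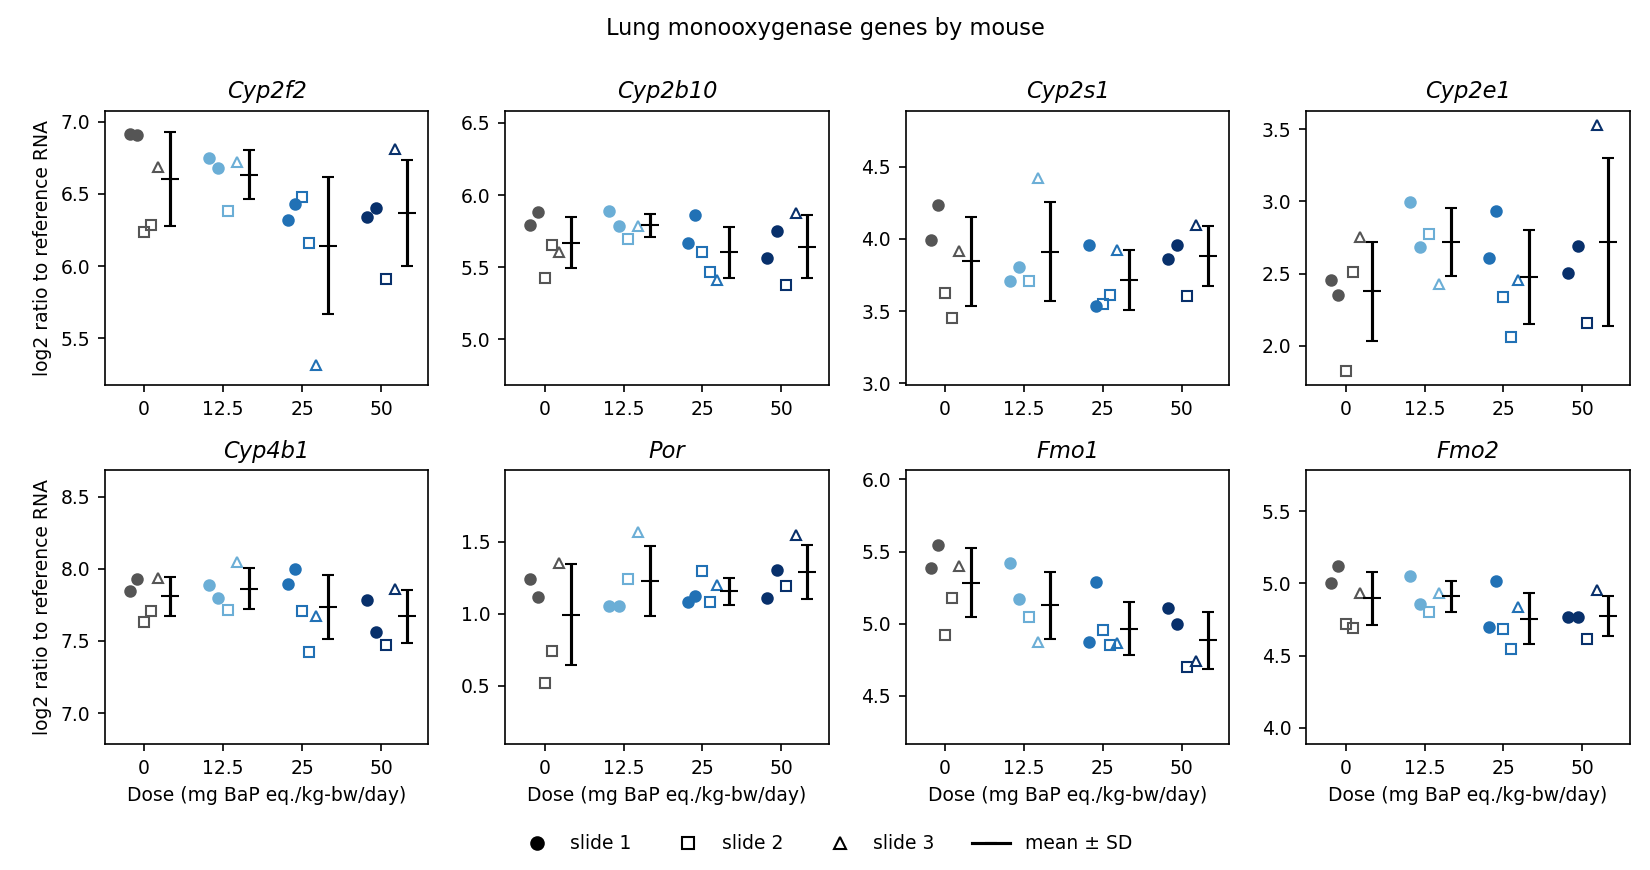
Log2 ratio to the reference RNA (y axis) of the 8 measured genes in each mouse, by dose (x axis), with the mean and SD beside each group. The marker shape gives the slide. The y axes differ in level but all span the same 1.9 log2 units. Fmo1 steps down from a mean of 5.29 in vehicle to 4.88 at the high dose with overlapping mice, and on several panels mice of slide 2 lie low.

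Por, the flavoprotein on which all the microsomal P450 enzymes above depend, was at 1.24, 1.11, 0.52, 0.74 and 1.35 in vehicle mice, 1.05, 1.05, 1.24 and 1.57 at the low dose, 1.08, 1.12, 1.30, 1.08 and 1.20 at the medium dose, and 1.11, 1.31, 1.19 and 1.55 at the high dose. The lowest values, 0.52 and 0.74, were those of the vehicle mice on slide 2. The differences were 0.23 ± 0.14, 0.16 ± 0.13 and 0.30 ± 0.14 (SE), with limma adjusted p of 0.734, 0.659 and 0.323. Within slides the high-dose difference was 0.03 on slide 1, 0.56 on slide 2 and 0.20 on slide 3, and without vehicle mouse 3 it was 0.18 ± 0.13 over all slides. With the slide as a block it was 0.27 ± 0.12 (limma adjusted p = 0.237).

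The other electron donors and partners of P450 enzymes, such as the cytochrome b5 genes and their reductases, were all measured, and 0 of 11 were called at any dose. Cyb5r1 had the largest high-dose difference among them, at 0.18 ± 0.10 (SE), ahead of Fdxr (-0.14), Pgrmc2 (0.13) and Cyb5r4 (0.12). Of the 12 genes of haem synthesis and breakdown, which supply and remove the P450 cofactor, 0 were called. Urod, of the porphyrin steps, was higher at the high dose by adjusted p alone (0.31 ± 0.08, SE; limma adjusted p = 0.0281), a rule by which 3.18% of named genes were higher. Ppox (0.49 ± 0.15), which acts late in the same pathway, Fech (0.32 ± 0.24), which inserts the iron, and the haem oxygenase gene Hmox1 (-0.39 ± 0.16) did not pass.

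Fmo1 was the gene nearest to a call. Its ratios were 5.39, 5.54, 4.92, 5.18 and 5.40 in vehicle mice, 5.42, 5.17, 5.05 and 4.87 at the low dose, 4.87, 5.29, 4.96, 4.85 and 4.87 at the medium dose, and 5.11, 5.00, 4.70 and 4.74 at the high dose. The group means went down with dose, from 5.29 ± 0.24 to 5.13 ± 0.23, 4.97 ± 0.18 and 4.88 ± 0.20 (SD), and vehicle mouse 3, at 4.92, lay among the dosed mice. The differences from the shared vehicle mice were -0.16 ± 0.13, -0.32 ± 0.12 and -0.40 ± 0.13 (SE), with limma adjusted p of 0.827, 0.184 and 0.0942. The two-sided exact permutation test gave p = 0.0556 at the high dose, where the smallest that 4 against 5 mice allow is 0.00794. Neighbouring groups in the order of dose did not differ beyond their spread.

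The second probe of Fmo1 gave the same order. It was at 4.24 ± 0.30 (SD, n = 5) in vehicle, 3.95 ± 0.36 (n = 4) at the low, 3.73 ± 0.28 (n = 5) at the medium and 3.65 ± 0.28 (n = 4) at the high dose. The high-dose difference was -0.59 ± 0.17 (SE; limma adjusted p = 0.0600), with 3 of 4 high-dose mice below all vehicle mice and p = 0.0317 in the two-sided exact permutation test. This probe was well above background in Cy3 in 11 of 18 mice and in Cy5 in all 18. Both probes followed their lung signal (r = 0.84 and 0.89) rather than the reference.

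Whether Fmo1 passed depended on how slides and probes were handled, on the normalization and on single mice. With the slide as a block the high-dose difference was -0.43 ± 0.10 (SE; limma adjusted p = 0.0128) on the standing probe, still under the 1.5-fold limit, and -0.65 ± 0.12 (0.00231) on the second probe, which was then called. In that fit 1.26% of all probes were called at the high dose, and 6.95% of named genes passed by adjusted p alone. Within slides 1, 2 and 3, where slides 2 and 3 held 1 high-dose mouse each, the second probe differed by -0.65, -0.65 and -0.66, and the standing probe by -0.41, -0.35 and -0.66. The second probe was also called when only probes well above background were fitted (limma adjusted p = 0.0444, where 2.34% of probes were called), when only the groups compared were fitted (0.0433), and without vehicle mouse 3 (-0.71, 0.0207), high-dose mouse 16 (-0.71, 0.0423) or low-dose mouse 10 (0.0411). In all it was called at the high dose in 6 of 28 alternatives. These include Aquantile normalization, which leaves the loess ratios as they are. In the fits of only the groups compared and with a mouse left out, the share of all probes called was not counted. The limma adjusted p of the second probe ran up to 0.746 with median centring, with 0.374 for scale normalization and 0.453 for the scanner's ratios. With normexp (-0.57, limma adjusted p = 0.0394) and with Cy5 alone (-0.57, 0.0187) it passed by adjusted p but not the fold limit. At the medium dose it was called in 1 of 28, without vehicle mouse 3 (-0.63, limma adjusted p = 0.0358). The direction was down on both probes under each of these settings, while the standing probe's high-dose difference was -0.20 with median centring and -0.11 with scale normalization.

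**Figure D4:**
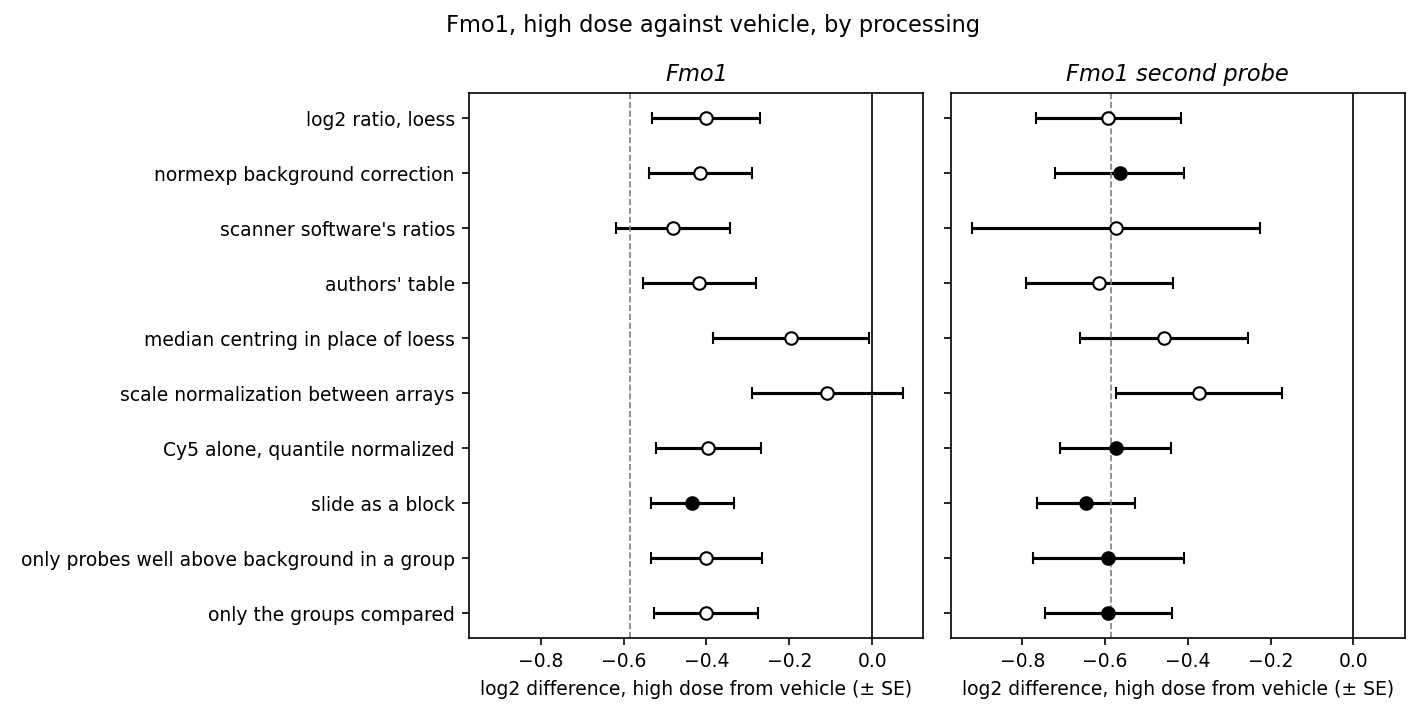
Log2 difference of Fmo1 between the high dose and vehicle (x axis, ± SE) on its standing probe (left) and second probe (right) under each way of processing (y axis). Filled points have a limma adjusted p of 0.05 or less, and the dashed line marks a 1.5-fold decrease. All points lie below 0, and only on the right do filled points reach the dashed line.

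Cell markers moved with Fmo1 between mice. Its ratio correlated with the mean of 7 alveolar type 1 markers at r = 0.84 over the 18 mice and r = 0.73 after the group means were taken out, and with the mean of 7 endothelial markers at 0.58 and 0.79. For the 10 alveolar type 2 markers these were 0.59 and 0.39, for the 6 leukocyte markers -0.51 and -0.23, and for the other 6 lists of cell markers they lay between -0.19 and 0.34. At the high dose 7 of 7 alveolar type 1 markers had a negative difference (median -0.23) and 0 of 7 were called, and their summed Cy5 signal ran from 149896 to 214276 in vehicle and from 160647 to 171633 in high-dose mice. Of the 7 endothelial markers 1 was called higher at the high dose, Pecam1 (0.74), where 0.736% of all named genes were. Kdr (-0.38) passed by adjusted p alone as lower, a rule by which 2.43% of all named genes were lower. The summed signal of the endothelial markers ran from 77637.5 to 106848 in vehicle and from 92145 to 109591 in high-dose mice. Of the 10 alveolar type 2 markers 0 were called. Abca3 (-0.35, limma adjusted p = 0.0335) and Slc34a2 (-0.37, 0.0401) passed by adjusted p alone as lower, beside the same 2.43%. The summed signal of the alveolar type 2 markers ran from 894124 to 1085170 in vehicle and from 931673 to 983165 in high-dose mice. All the markers of these 3 lists were well above background in a group. Their part in the values of Fmo1 was not tested.

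Fmo2, its neighbour on chromosome 1, was at 4.90 ± 0.18 (SD, n = 5) in vehicle, 4.91 ± 0.11 (n = 4) at the low, 4.76 ± 0.18 (n = 5) at the medium and 4.78 ± 0.14 (n = 4) at the high dose. The high-dose difference was -0.12 ± 0.10 (SE; limma adjusted p = 0.665), with an interval of -0.33 to 0.10, and it was positive with median centring (0.10), scale normalization (0.15) and Cy5 alone (0.15). Of the other 5 FMO genes, 0 were called and 4 had a positive high-dose difference. Fmo4 differed by 0.25 ± 0.09 (SE) and Fmo5 by 0.24 ± 0.11. Neither passed, with limma adjusted p of 0.159 and 0.294.

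Several of the genes varied together between mice. Over the 18 mice the ratio of Cyp2f2 correlated with that of Cyp2b10 at r = 0.80, Cyp4b1 with Fmo2 at 0.79, Cyp2b10 with Fmo2 at 0.77 and Fmo1 with Fmo2 at 0.69. These are descriptions over points that share arrays, slides and the reference. On the lung signal alone the same pairs were at 0.07, 0.03, 0.44 and 0.46. The highest pairs on the lung signal were Cyp2s1 with Por (0.74, and 0.59 as ratios) and Cyp2f2 with Por (0.71, and 0.26 as ratios).

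**Figure D5:**
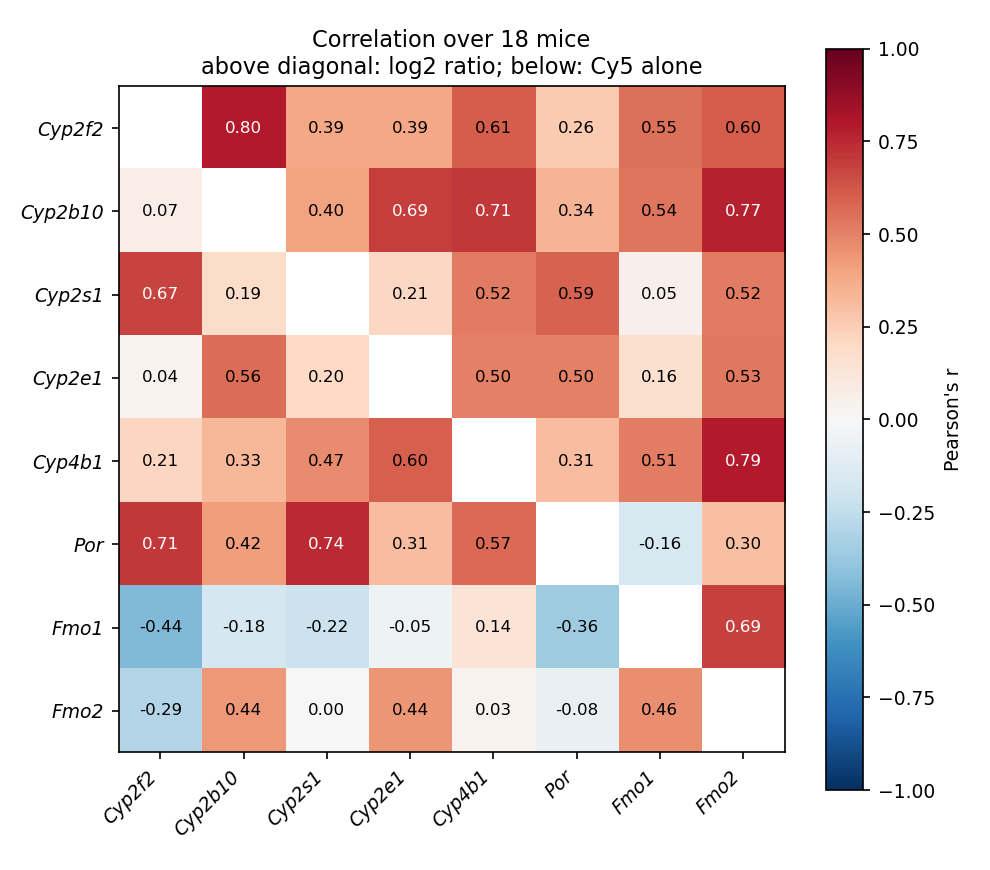
Pearson's r between each pair of the 8 genes over the 18 mice, for log2 ratios above the diagonal and for the quantile-normalized lung signal (Cy5) alone below it. Red is positive and blue is negative. Most ratios go together, with Cyp2f2 and Cyp2b10 the highest at 0.80, while on the lung signal that pair is at 0.07.

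Among 13442 other genes well above background on every array, those most like each gene were found by the correlation of ratios over the 18 mice, as a description. Cyp2f2 was most like the surfactant genes Sftpb (r = 0.93), Sftpa1 (0.92) and Sftpc (0.90), which stand in the list of alveolar type 2 markers used here. This likeness does not set alveolar type 2 cells apart from club cells. On the lung signal alone these were at -0.64, -0.21 and -0.38, but quantile normalization sets the value of a spot as bright as Cyp2f2 by its rank. Its correlation with the mean of the 13 club and airway secretory markers was 0.26, and with the mean of the 10 alveolar type 2 markers 0.80. The markers were averaged without scaling, and among vehicle mice the SD was 1.36 for Bpifa1 of the airway list and 0.41 for Scgb1a1. Cyp2b10 was most like Wfdc2 (0.89) and the club cell genes Cbr2 (0.88) and Scgb1a1 (0.88), which were at 0.20, 0.23 and -0.33 on the lung signal. With the mean of all 13 club and airway secretory markers it correlated at 0.34, below the alveolar type 2 (0.72) and endothelial (0.71) lists.

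For the remaining genes the likeness on the lung signal differed from gene to gene. Cyp2s1 was most like Tctn2 (0.93), Bphl (0.93) and Tcp11 (0.91), at 0.72, 0.83 and 0.94 on the lung signal, and it went with the mean of the 8 ciliated cell markers at 0.81. Por was most like Acsl1 (0.88), Alas1 (0.83) and Stat6 (0.82), of which Alas1 encodes the first enzyme of haem synthesis, at 0.86, 0.62 and 0.69 on the lung signal. Fmo1 was most like Phactr2 (0.89), Rbm14 (0.85) and Ramp2 (0.84), at 0.85, 0.76 and 0.76. Fmo2 was most like the endothelial genes Ushbp1 (0.89) and Cldn5 (0.88) and Gpx3 (0.87), at 0.69, 0.61 and 0.25. Cyp4b1 had Fmo2 first (0.79), then Ednra (0.77) and Ushbp1 (0.76), at 0.03, 0.37 and 0.13 on the lung signal. Cyp2e1 had Robo4 (0.84), Gucy1a1 (0.82) and Abca8a (0.80), at 0.40, 0.86 and 0.62.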

How the data were processed

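Per the labels, lung RNA was labelled with Cy5 and the reference RNA with Cy3, with no dye swap. The authors deposited, for each array, median signal intensities as the scanner software wrote them (Feature Extraction 11.0.1.1 per the file headers), with flags and its own log10 ratio, and a table of log2 ratios. Set against the scanner values, that table held log2 ratios of Cy5 over Cy3 (r of at least 0.995 on each array), with medians of -0.032 to -0.019. How it was centred is not known.

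Log2 ratios of median intensities, without background subtraction, were normalized by loess within arrays in R 4.3.3 with limma 3.58.1. Outlier spots (215 to 307 per array) and control spots had no weight and were left out, and spots of a probe were averaged. The 4 groups were fitted together, with Benjamini-Hochberg adjustment over 55681 probes in each comparison. Intervals are limma's. The MAANOVA test of the paper was not run. Single genes were compared by two-sided exact permutation tests. The fit was tested on simulated data. Accessions were named through RefSeq (GRCm38), which named 27235 probes.

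The genes followed, the gene lists and the cell markers were chosen with earlier results of these data known. All their probes were described. Of the lists, the called genes and up to 4 more with the largest high-dose difference among those well above background were named. For each gene followed, the 3 most correlated others were named. Cyp2j6, Cyp4f15, Cyp4f18, Kdr, Urod, Abca3 and Slc34a2 were added after their values were seen. Some genes that this rule names are not reported here. Markers of ciliated cells, fibroblasts, leukocytes and hepatocytes were also measured. Col1a1 and Col1a2 were called lower at the high dose, and no others of these 4 lists were called at it. At that dose 0.774% of all named genes were called lower. Alternatives were normexp (offset 50), the scanner's ratios, the authors' table, median centring, scale and Aquantile normalization, Cy5 alone, the slide as a block and within slides, a filter on dim probes, only the groups compared, no fold limit, the mean of a gene's probes, and each mouse left out. The number of arrays limits the precision.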

Additional observations from a re-analysis of the deposited data

Results flagged for a closer look

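Of the 40 groups of mice tested over the 10 probes, 5 held a mouse far from the others by Dixon's gap, which chance flags in about 1 in 20 groups. Cyp2f2 in medium-dose mouse 15 was at 5.32, with the nearest mouse at 6.16. Cyp2s1 in low-dose mouse 10 was at 4.42, with the nearest at 3.81. Fmo1 in medium-dose mouse 12 was at 5.29, with the nearest at 4.96. On the second probe of Cyp2e1, vehicle mouse 5 was at 1.42, with the nearest at 0.73, and low-dose mouse 7 was at 0.75, with the nearest at 1.20.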

How the results depend on the processing

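The counts of called genes were 0 of 8 at each dose and between the high and low dose under each alternative run, and with each mouse left out. Differences of Fmo1, Por and the second probe of Cyp2e1 kept their direction in each of these fits except within slides, where Por was at -0.12 (low) and -0.0776 (medium) on slide 1 and -0.15 (medium) on slide 3, and the second probe of Cyp2e1 was below 0 at each dose on slide 3, which held 1 mouse of each group. Outside the values within slides, Cyp2e1 at the low and high dose and Cyp2b10 at the low dose also kept theirs. The others turned under at least 1 setting, Cyp2f2 at the medium dose (-0.46) among them, and the cause was not tested. The scanner's ratios gave -0.0166 for Cyp2s1 at the high dose, -0.0317 for Cyp2e1 and 0.0721 for Cyp4b1 at the medium dose, and -0.0227 for Fmo2 at the low dose. At the medium and high dose, median centring gave 0.0705 and 0.16 for Cyp2b10, 0.0667 and 0.0774 for Cyp4b1, 0.0053 and 0.10 for Fmo2, and 0.0423 for Cyp2s1 (medium). Scale normalization gave 0.14 and 0.29 for Cyp2b10, 0.21 and 0.30 for Cyp4b1, 0.0364 and 0.15 for Fmo2, 0.0094 for Cyp2s1 (medium) and 0.12 for Cyp2f2 (high). Cy5 alone gave 0.21 and 0.0921 for Cyp2f2, 0.31 and 0.42 for Cyp2b10, 0.0369 and 0.15 for Fmo2, 0.00021 for Cyp2s1 (medium) and -0.0545 for Cyp4b1 (low). The slide as a block gave -0.0116 for Cyp2f2 (low), -0.0172 for Cyp2s1 (high) and -0.0192 for Fmo2 (low). With each mouse left out the range was -0.11 to 0.0608 for Cyp2b10 (high), -0.0374 to 0.21 for Cyp2e1 (medium), -0.0631 to 0.11 for Cyp2f2 (low), -0.0628 to 0.13 for Cyp2s1 (high), -0.11 to 0.16 for Cyp2s1 (low), -0.0105 to 0.10 for Cyp4b1 (low), -0.14 to 0.0064 for Cyp4b1 (medium) and -0.0340 to 0.0731 for Fmo2 (low).

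Over all probes, median centring left 80 calls at the high dose where loess gave 670, and the scanner's ratios gave 1075. Of these calls 222 were higher and 448 lower with loess, 69 and 11 with median centring, and 314 and 417 with scale normalization. Aquantile normalization leaves ratios as they are. No paired analysis was possible because mouse numbers are not shared between groups. Weak Cy3 signals limit the ratios of Cyp2e1, Cyp4b1 and the second probe of Fmo1, and the brightness of Cyp2f2 limits its values in Cy5. P-values measure the spread between single mice on 1 array each.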
